A study of Homo sapiens with 6 samples.

Results

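Interleukin-1 (IL1) is an inflammatory cytokine signal, and the chemokines that signal through the receptor CXCR2 are among the genes it switches on. This account follows 9 of the 30099 listed genes, chosen by name: the ligands IL1A and IL1B, the receptor chains IL1R1 and IL1RAP, the CXCR2-ligand chemokines CXCL1, CXCL2, CXCL3 and CXCL8, and CCL20. CCL20 belongs with them as an IL1-responsive chemokine, but its receptor is CCR6 and not CXCR2. All 9 were found by Ensembl identifier through GENCODE release 29 names.

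The genes were measured by RNA sequencing in MDA-MB-231, a mesenchymal-like line long grown from human breast cancer, and in a derivative labelled Pep2-E3 that shares its background. The parental cells carry the genotype label control and the others Pep-E3. What Pep-E3 means, how the cells were made and whether they are 1 clone are not given, nor is any treatment or time. Each group had 3 libraries, and the comparison asks which transcripts differ between both populations.

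IL1A and IL1B bind the same receptor, IL1R1, which then recruits IL1RAP, the accessory chain that signalling needs. The adaptor MYD88 and the IRAK kinases pass the signal to NF-kB, a transcription factor that binds promoters of chemokine genes. IL1A is active as a precursor, whereas IL1B must be cut, classically by caspase-1 in an inflammasome. CXCL1, CXCL2, CXCL3 and CXCL8 attract neutrophils through CXCR2, and secreted IL1 and CXCL8 are well known from aggressive breast cancer lines.

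Values are FPKM, which divides fragments by exon length and library depth. The exon length is that of all annotated exons of a gene joined, which can exceed its longest transcript. Levels can thus be set side by side between genes only roughly. The libraries held 17154511 to 18206694 fragments, a ratio of 1.06. The mesenchymal marker VIM was at 174 and 158 FPKM in the parental and Pep2-E3 means and CD44 at 63.3 and 62.4 FPKM, and ESR1 and CDH1 were under 0.05 FPKM. EPCAM was at 2.71 and 2.32 FPKM, and GATA3 rose from 0.846 to 2.10 FPKM (limma adjusted p = 0.00416). PGR, too low to be tested, was at 0.0759 FPKM in the parental mean and 0.161 FPKM in Pep2-E3, with no overlap. Of 14 leukocyte markers 8 had a value, and their summed level was 3.83 to 4.24 FPKM in parental libraries and 4.20 to 4.66 FPKM in Pep2-E3, nearly all of it ITGB2. PTPRC, which marks all leukocytes, was at 0.142 and 0.0339 FPKM. Fibroblast markers summed to 1.73 to 1.93 FPKM in the parental libraries and 1.25 to 1.42 FPKM in Pep2-E3, and endothelial markers to 1.13 FPKM and more in the parental libraries and 0.966 to 1.21 FPKM in Pep2-E3. In each of these 3 lists 1 gene reached the filter for testing, and it was not called. Below that filter, the fibroblast and pericyte receptor PDGFRB was at 0.476 FPKM in the parental mean and 0.0841 FPKM in Pep2-E3, with no overlap, and was picked out after its values were seen. Pep2-E3 replicate 1 stood apart from its group: the mean chi-square per gene was 14.8 and 19.3 against the other Pep2-E3 libraries, 4.07 between those, and 2.63 to 3.78 within the parental group. In bulk RNA, fewer expressing cells and less RNA per cell cannot be told apart. Whether replicates came from separate cultures is not labelled. The p-values therefore reflect spread among these 6 libraries alone, and that spread may be technical.

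The upstream sequence of the chemokine genes is shown first, because the 4 CXCR2-ligand genes share a short NF-kB-type motif there. Below are the 150 bases before the RefSeq start of each gene (GRCh38.p14), 5′ to 3′ on the gene's strand, with the motif GGAATTTCC and, where present, the AP-1-type motif TGANTCA in capitals. The windows lie at chr4:73869243-73869392 (plus strand, CXCL1), chr4:74099196-74099345 (minus strand, CXCL2), chr4:74038690-74038839 (minus strand, CXCL3) and chr4:73740419-73740568 (plus strand, CXCL8).
CXCL1: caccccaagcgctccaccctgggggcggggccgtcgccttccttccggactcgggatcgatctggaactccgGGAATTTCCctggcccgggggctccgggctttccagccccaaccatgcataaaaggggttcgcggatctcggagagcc
CXCL2: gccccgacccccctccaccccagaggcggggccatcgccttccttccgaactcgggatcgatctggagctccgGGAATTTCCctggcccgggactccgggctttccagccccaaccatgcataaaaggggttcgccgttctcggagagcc
CXCL3: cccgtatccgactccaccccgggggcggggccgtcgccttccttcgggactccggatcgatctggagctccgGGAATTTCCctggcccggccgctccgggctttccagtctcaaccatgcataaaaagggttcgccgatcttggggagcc
CXCL8: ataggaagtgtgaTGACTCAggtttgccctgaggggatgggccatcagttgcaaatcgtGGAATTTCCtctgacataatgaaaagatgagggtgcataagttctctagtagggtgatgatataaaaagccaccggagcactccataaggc

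Counted from the RefSeq start, with -1 the base just before it, the first base of GGAATTTCC lies at -78 in CXCL1, -77 in CXCL2, -78 in CXCL3 and -91 in CXCL8. Some GENCODE models start up to 118 bases further upstream for these 4 genes. The GENCODE start lies much further upstream for IL1R1, by 40060 to 78202 bases over its RefSeq starts, and for CCL20, by 8103 bases. Which start is used was not tested. Over the 250 bases before the start, aligned end to end, CXCL1 and CXCL3 were 81.4% identical, CXCL2 and CXCL3 73.3%, and CXCL1 and CXCL2 70.4%. The CXCL8 window was 42.0% to 45.4% identical to the other 3. Searched on both strands in 35116 windows of 250 bases from the RefSeq table, GGAATTTCC was present in 0.413%. The looser kappa B pattern (GGG, then any 5 bases, then CC) overlaps it in CXCL1, CXCL2 and CXCL3. This pattern was present in 54.4% of all windows and in 7 of the 13 windows of the 9 genes, a similar share. All of the 9 but IL1A and IL1B had a window with it, though not every IL1R1 window held it. TGANTCA was present in 6.57% of all windows and in 3 of the 13, which belong to IL1A and CXCL8. The IL1A windows overlap, and the same TGACTCA site is counted in both. A match describes the letters in the window and is not a site shown to be used.

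For contrast, the same 150 bases are shown for the ligand pair IL1A and IL1B, at chr2:112784494-112784643 and chr2:112836780-112836929 (both minus strand), with TGANTCA in capitals. RefSeq gives a further IL1A start, whose window is not shown and holds TGANTCA as well.
IL1A: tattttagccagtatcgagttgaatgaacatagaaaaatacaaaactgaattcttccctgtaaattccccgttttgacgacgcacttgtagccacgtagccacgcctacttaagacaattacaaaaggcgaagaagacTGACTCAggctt
IL1B: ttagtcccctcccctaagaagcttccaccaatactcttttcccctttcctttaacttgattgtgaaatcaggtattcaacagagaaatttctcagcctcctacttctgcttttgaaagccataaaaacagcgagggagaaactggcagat
Neither window holds GGAATTTCC, and the IL1A window holds TGACTCA with its first base at -12.

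Of the 9 genes, 8 reached a mean of 0.5 FPKM and were tested, and CCL20 did not. In limma's test on log2(FPKM + 1), with Benjamini-Hochberg adjustment over all 14235 tested genes at 0.05, 5 were higher in Pep2-E3 (IL1A, IL1R1, CXCL1, CXCL2 and CXCL3), 1 was lower (IL1B) and 2 were not called (IL1RAP and CXCL8). The background is high in this comparison: of all tested genes 30.8% were called, made up of 14.6% higher and 16.2% lower. The median log2 fold change of the 8 genes was 0.67, against -0.02 over all tested genes. Of the 8 tested genes 6 had no overlap between the groups, the same 6 that were called. Over all tested genes 48.8% had none (22.8% with every Pep2-E3 library higher and 26% with every one lower). All 6 kept their call without Pep2-E3 replicate 1.

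**Figure D1:**
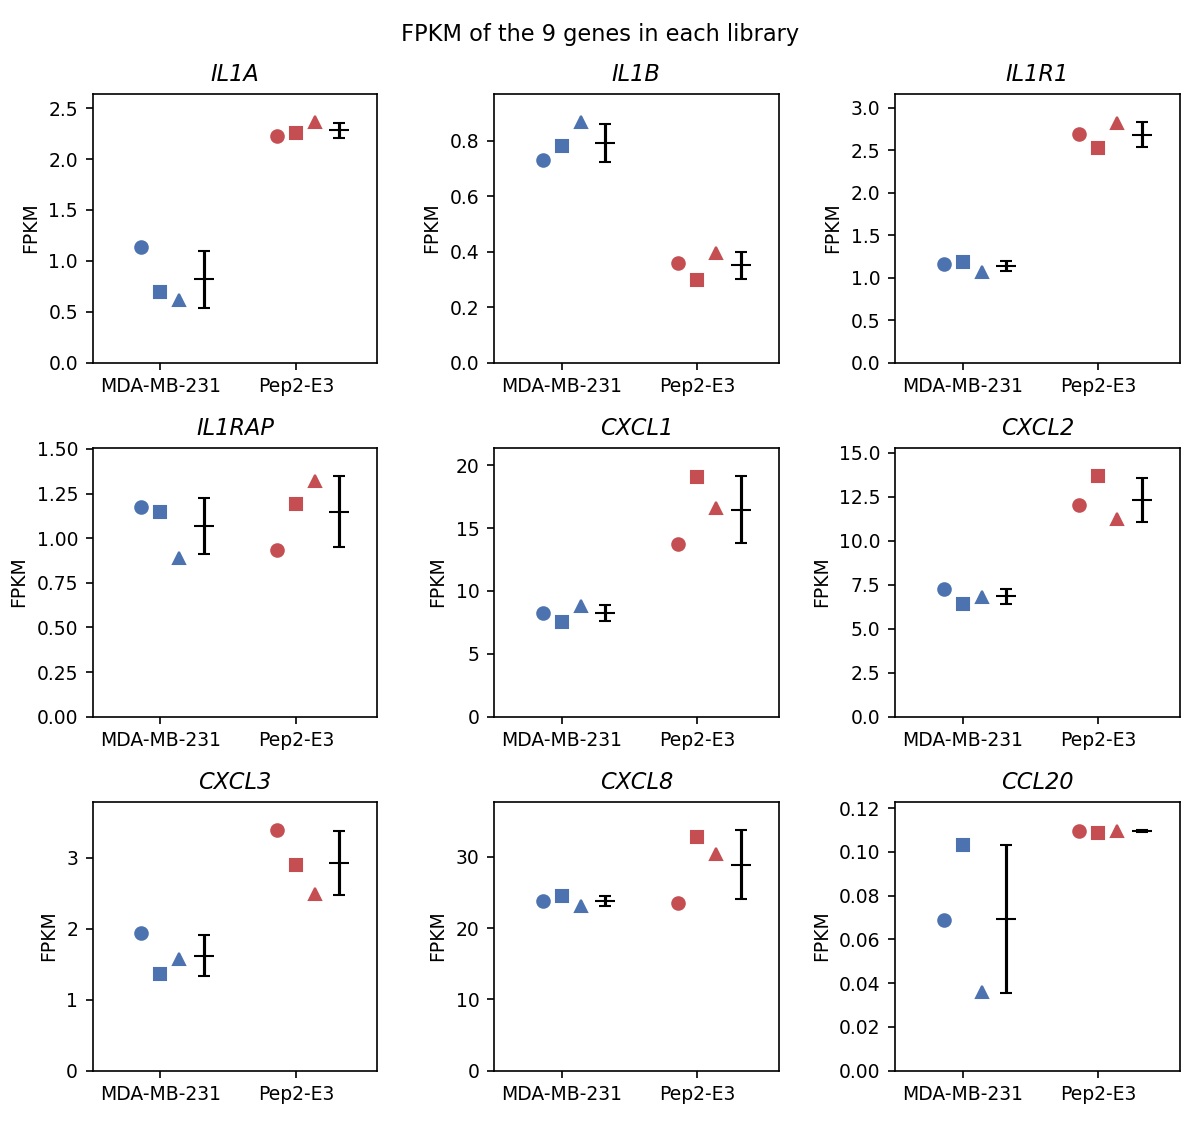
FPKM (linear axis from 0, own scale per panel) of each of the 9 genes in the 3 MDA-MB-231 libraries (blue) and 3 Pep2-E3 libraries (red). Circles, squares and triangles are replicates 1, 2 and 3, and the bars give the mean ± SD. CXCL1 runs from 7.54 to 8.84 FPKM in MDA-MB-231 and from 13.8 to 19.1 FPKM in Pep2-E3.

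Both IL1 ligands were expressed at a low level, and they moved in opposite directions. IL1A was at 1.14, 0.698 and 0.617 FPKM in MDA-MB-231 replicates 1, 2 and 3 and at 2.22, 2.26 and 2.36 FPKM in Pep2-E3. Every Pep2-E3 library was above every parental one, and the parental spread came mostly from replicate 1. IL1A rose 2.79-fold in mean FPKM, with a log2 fold change of 0.86 ± 0.12 (SE) on the log2(FPKM + 1) scale and a limma adjusted p of 0.00307. These values rest on 23 to 44 fragments per parental library and 81 to 86 per Pep2-E3 library.

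IL1B was at 0.729, 0.781 and 0.866 FPKM in MDA-MB-231 and at 0.358, 0.299 and 0.395 FPKM in Pep2-E3. All Pep2-E3 libraries lay below all parental ones. IL1B fell 2.26-fold in mean FPKM (log2 fold change -0.41 ± 0.09, SE, limma adjusted p = 0.0157), on 41 to 47 fragments per parental library and 16 to 21 per Pep2-E3 library. Its call was lost without MDA-MB-231 replicate 2 (limma adjusted p = 0.0554), without MDA-MB-231 replicate 3 (0.0568) or without Pep2-E3 replicate 2 (0.0534).

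IL1A made up 61.0%, 47.2% and 41.6% of the summed FPKM of both ligands in the parental libraries and 86.1%, 88.3% and 85.7% in Pep2-E3. By FPKM, IL1A was close to an equal part of the pair in the parental mean and most of it in every Pep2-E3 library. The near-equal part depends on the exon length used, 2124 bases for IL1A and 3096 for IL1B. The longest transcript is 2124 bases for IL1A but 1631 for IL1B. In parental replicates 1, 2 and 3 IL1B had 41, 44 and 47 fragments, against 44, 27 and 23 for IL1A. The sum itself was 1.61 ± 0.225 FPKM in parental libraries and 2.63 ± 0.108 FPKM in the others (SD, n = 3 each). The difference of IL1B minus IL1A in log2(FPKM + 1) was -0.01 ± 0.27 in the parental libraries and -1.28 ± 0.04 in Pep2-E3 (SD, n = 3 per group), with no overlap. An exact two-sided permutation test of that difference gave p = 0.1, the smallest that 3 against 3 libraries allow, and 0.15 adjusted over the 6 pairs compared.

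The receptor chains differed from each other as well. IL1R1, the ligand-binding signalling receptor, was at 1.16, 1.19 and 1.07 FPKM in MDA-MB-231 and at 2.70, 2.53 and 2.82 FPKM in Pep2-E3. The groups were far apart relative to their spread, and IL1R1 had the smallest p-value of the 9 genes. It rose 2.36-fold (log2 fold change 0.78 ± 0.07, SE, limma adjusted p = 0.000868), on 133 to 153 fragments per parental library and 310 to 343 per Pep2-E3 library.

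IL1RAP, the shared accessory chain, was at 1.17, 1.15 and 0.888 FPKM in MDA-MB-231 and at 0.933, 1.19 and 1.32 FPKM in Pep2-E3. The groups overlapped. Its log2 fold change was 0.05 ± 0.11 (SE, limma adjusted p = 0.731), with a 95% interval from -0.20 to 0.30 that ends below the 0.78 of IL1R1. Its sign turned when MDA-MB-231 replicate 3 (-0.01) or Pep2-E3 replicate 3 (-0.005) was left out. IL1RAP minus IL1R1 in log2(FPKM + 1) was -0.05 ± 0.07 in MDA-MB-231 and -0.78 ± 0.13 in Pep2-E3 (SD, n = 3 per group), without overlap (exact permutation p = 0.1, 0.15 adjusted over 6 pairs). Of its exon bases 4.63% overlap AC108747.1, so those fragments cannot be assigned.

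The decoy receptor IL1R2, which binds IL1 without signalling, had 0 fragments in all parental libraries and 17 in the 3 Pep2-E3 libraries together. Against a floor of 3 parental fragments over the group it was 5.92-fold higher, scaled to depth. This takes the 17 fragments as exact, so it is not a lower bound of the ratio. IL1R2 had a mean of only 0.107 FPKM in Pep2-E3 and was not tested.

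**Figure D2:**
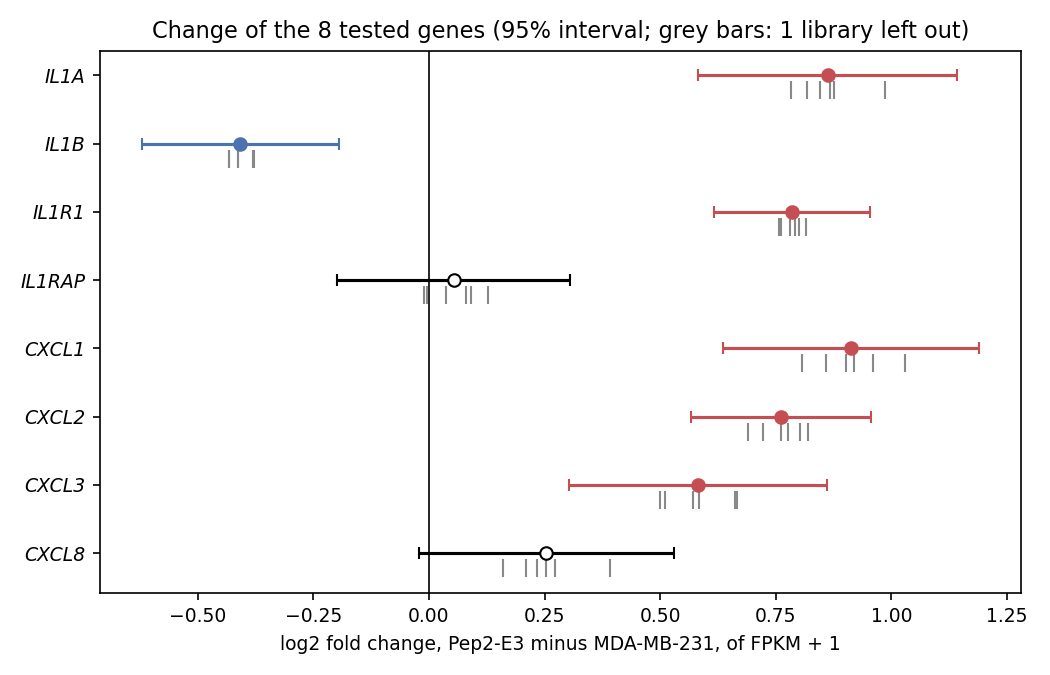
Log2 fold change of FPKM + 1 (Pep2-E3 minus MDA-MB-231, horizontal axis) of the 8 tested genes, with the 95% interval from limma over 6 libraries. Red is called higher, blue called lower and open black not called. Grey bars under each gene are the values with 1 library left out; the bar of CXCL8 farthest to the right, at 0.39, leaves out Pep2-E3 replicate 1.

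CXCL1, CXCL2 and CXCL3 all rose, by 2.00-fold, 1.80-fold and 1.80-fold in mean FPKM. CXCL1 was at 8.29, 7.54 and 8.84 FPKM in MDA-MB-231 and at 13.8, 19.1 and 16.6 FPKM in Pep2-E3. The Pep2-E3 libraries were all above the parental ones and spread more widely, with replicate 1 the lowest. Its log2 fold change was 0.91 ± 0.12 (SE, limma adjusted p = 0.00249), on 178 to 201 fragments per parental library and 306 to 427 per Pep2-E3 library.

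CXCL2 was at 7.27, 6.41 and 6.80 FPKM in MDA-MB-231 and at 12.0, 13.7 and 11.2 FPKM in Pep2-E3, again with no overlap. It rose by 0.76 ± 0.08 on the log2(FPKM + 1) scale (SE, limma adjusted p = 0.00147). CXCL3, the least abundant of the group, was at 1.94, 1.36 and 1.57 FPKM in MDA-MB-231 and at 3.39, 2.89 and 2.50 FPKM in Pep2-E3. The lowest Pep2-E3 value was above the highest parental one. Its highest Pep2-E3 library was replicate 1, which was the lowest for CXCL1. The log2 fold change of CXCL3 was 0.58 ± 0.12 (SE, limma adjusted p = 0.0118). These 3 genes are close copies, and 5.73% of the 50-base stretches of the longest CXCL1 transcript, 9.24% for CXCL2 and 3.02% for CXCL3, also occur in other genes of the group, so some fragments may be split between them.

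CXCL8, which encodes interleukin-8 and also binds CXCR1, was the most abundant of the 9 in both groups. It was at 23.8, 24.5 and 23.2 FPKM in MDA-MB-231 and at 23.5, 32.7 and 30.5 FPKM in Pep2-E3. Pep2-E3 replicate 1 lay inside the parental range, and the other 2 Pep2-E3 libraries lay above it. Over all libraries CXCL8 was not called (log2 fold change 0.25 ± 0.12, SE, limma adjusted p = 0.142, 95% interval -0.02 to 0.53). Without Pep2-E3 replicate 1, the library that stood apart, the log2 fold change was 0.39 ± 0.05 (SE, limma adjusted p = 0.00263). With the libraries corrected for the GC content and length of exons it was 0.36 ± 0.06 (SE, limma adjusted p = 0.00483).

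The 4 CXCR2 ligands together summed to 41.3, 39.9 and 40.4 FPKM in MDA-MB-231 and to 52.6, 68.3 and 60.8 FPKM in Pep2-E3. CXCL8 made up 58.9% ± 2.35 of that sum in the parental libraries and 47.5% ± 2.77 in Pep2-E3 (SD, n = 3 each). CXCL1 made up 20.1%, 18.9% and 21.9% in the parental libraries and 26.1%, 27.9% and 27.3% in Pep2-E3. CXCL8 minus CXCL1 in log2(FPKM + 1) was 1.43 ± 0.14 in MDA-MB-231 and 0.77 ± 0.06 in Pep2-E3 (SD, n = 3 per group), with no overlap (exact permutation p = 0.1, 0.15 adjusted over 6 pairs). The same measure for CXCL2 and CXCL3 against CXCL1 overlapped between the groups, and moved by -0.15 and -0.33 (exact permutation p = 0.3 for each, 0.3 adjusted).

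**Figure D3:**
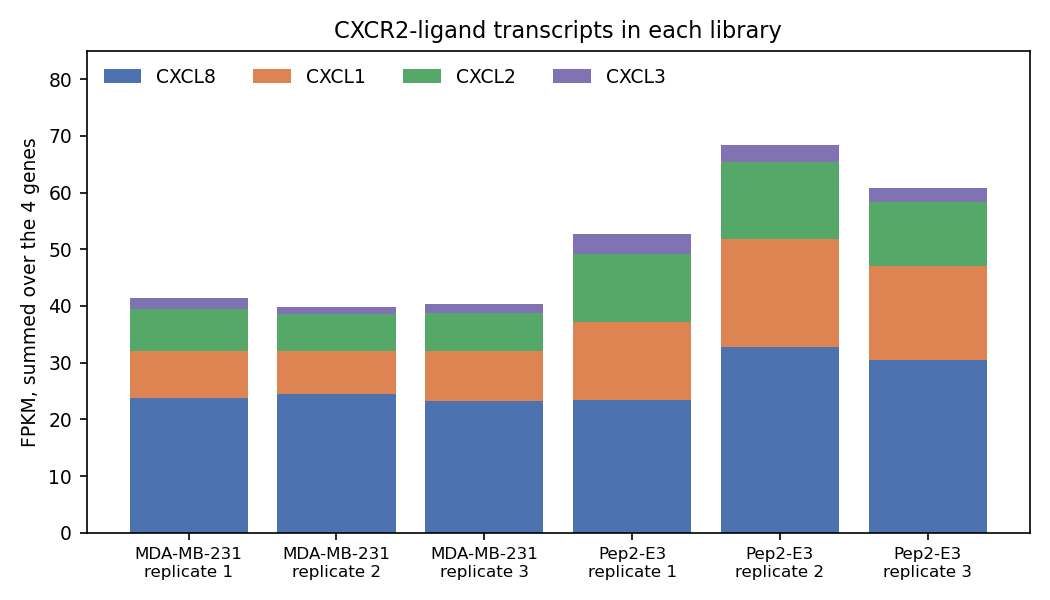
FPKM of CXCL8 (blue), CXCL1 (orange), CXCL2 (green) and CXCL3 (purple) stacked for each of the 6 libraries on a linear axis from 0. The parental sums lie between 39.9 and 41.3 FPKM and the Pep2-E3 sums between 52.6 and 68.3 FPKM, with the blue part of Pep2-E3 replicate 1, at 23.5 FPKM, inside the parental range.

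CCL20, a chemokine for CCR6-bearing lymphocytes and dendritic cells, was barely detected. It had 2, 3 and 1 fragments in MDA-MB-231 and 3, 3 and 3 in Pep2-E3, or 0.0358 to 0.110 FPKM. The ratio of 9 to 6 fragments, scaled to depth, was 1.57, with an exact 95% interval from 0.498 to 5.35 that covers counting error only. No difference in CCL20 was detectable at this depth. Against CXCL1, CCL20 moved by -0.86 in log2(FPKM + 1), where CCL20 itself is close to 0 in every library (exact permutation p = 0.1, 0.15 adjusted over 6 pairs).

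In both groups the order of levels began with CXCL8, CXCL1 and CXCL2, whose ranges did not meet. In MDA-MB-231 CXCL3 followed, and then IL1R1, IL1RAP, IL1A and IL1B, each overlapping the next. In Pep2-E3 the ranges of CXCL3 and IL1R1 overlapped, IL1A stood next, above IL1RAP, and IL1B fell clearly below IL1RAP. The order below CXCL2 depends on the exon lengths used. Joined exons and longest transcript measure 11558 and 5413 bases for IL1RAP, 3096 and 1631 for IL1B, and 2124 and 2124 for IL1A. Among the tested genes CXCL8 was at the 86.2nd percentile of parental means, CXCL1 at 61.9 and IL1R1 at 16.2. In Pep2-E3 these genes were at 88.9, 79.6 and 35.5.

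The 4 CXC genes lie together on the long arm of chromosome 4 (band 4q13), so their neighbours were examined. In GRCh38 CXCL8 (ENSG00000169429) spans chromosome 4, 73740506 to 73743716, CXCL1 (ENSG00000163739) 73869393 to 73871242, CXCL3 (ENSG00000163734) 74036589 to 74038807 and CXCL2 (ENSG00000081041) 74097035 to 74099293. From RASSF6 to BTC the tables list 15 genes, and 4 besides the CXC genes were tested. AREG, an EGFR ligand, rose from 8.78 to 10.9 FPKM (log2 fold change 0.29, limma adjusted p = 0.0331). The mitochondrial folate enzyme gene MTHFD2L, beside CXCL2, was at 1.27 and 1.30 FPKM (adjusted p = 0.975 by limma). The EGFR ligands EREG (1.41 and 0.989 FPKM) and BTC (0.501 and 0.736 FPKM) were not called either (limma adjusted p = 0.201 and 0.285). The silent chemokine genes between the members, PF4 and CXCL5, were at 0.224 FPKM or less in the mean of each group.

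**Figure D4:**
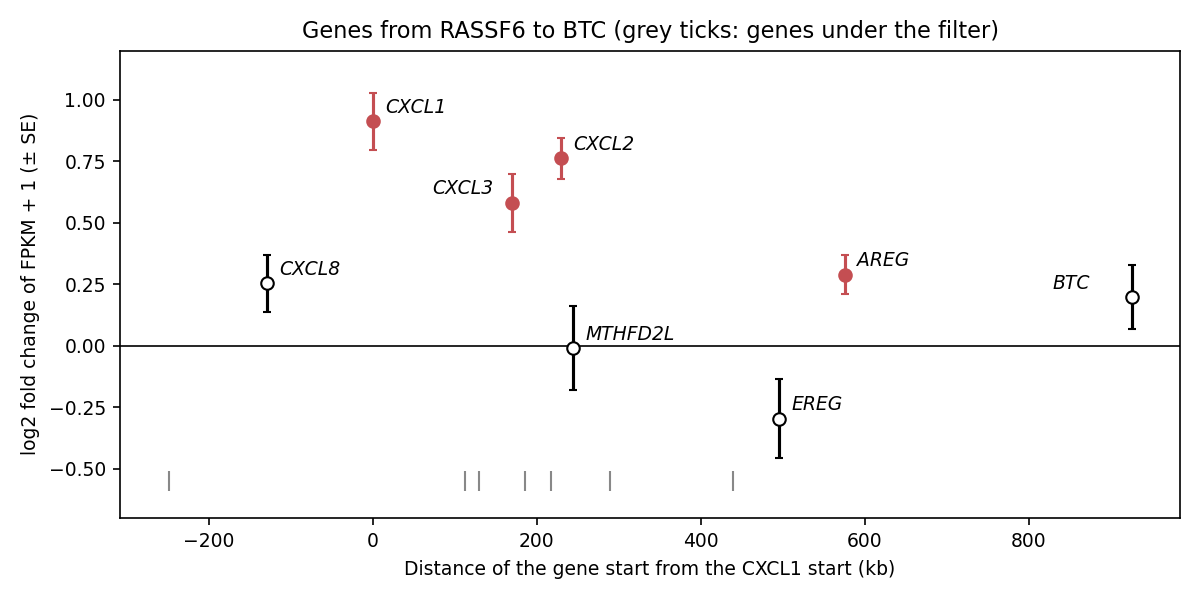
Log2 fold change of FPKM + 1 (± SE, 3 libraries per group) of the 8 tested genes from RASSF6 to BTC against the distance of each gene's start from the CXCL1 start in kb. Red is called higher and open black not called, and grey ticks mark genes under the filter. CXCL1, CXCL3 and CXCL2 lie at 0.91, 0.58 and 0.76, and MTHFD2L, the next gene after CXCL2, lies at -0.01.

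IL1A (ENSG00000115008; chromosome 2, 112773915 to 112784590) and IL1B (ENSG00000125538; 112829751 to 112836903) are neighbours, yet changed in opposite directions. IL1R1 (ENSG00000115594) lies on the same chromosome at 102064544 to 102179874. Of the 6 nearest tested genes around IL1R1, 4 were higher in Pep2-E3: CNOT11, the kinase gene MAP4K4, MFSD9 and TMEM182, with log2 fold changes of 0.36, 0.54, 0.72 and 0.60 (limma adjusted p = 0.00303, 0.000868, 0.00254 and 0.00364). The adjacent receptor gene IL1RL2, for IL36 cytokines, was at 1.52 and 1.28 FPKM (limma adjusted p = 0.340). Around IL1A and IL1B 2 of 6 were higher, SLC20A1 and PSD4. Around IL1RAP (ENSG00000196083; chromosome 3, 190514051 to 190659750) 2 were higher and 2 lower. Around CCL20 (ENSG00000115009; chromosome 2, 227805739 to 227817564) none of 6 was called. Over these sets together 8 of 24 neighbours were higher and 2 lower, against 14.6% and 16.2% of all tested genes. Whether a wider stretch around IL1R1 changed was not tested.

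The genes most like 8 of the 9 across the 6 libraries, among up to 7178 others with a mean of at least 5 FPKM, were as follows. TMEM70 followed CXCL1 most closely (Pearson r = 0.999), ZWINT CXCL2 (0.998), SNX11 CXCL3 (0.998), PITPNB CXCL8 (0.994) and POLA1 IL1R1 (0.999). For IL1A the first named gene was CD40 (0.995), for IL1RAP FBXO9 (0.985), and for CCL20, at a few fragments, ZNF767P (0.965). These r-values are over 6 libraries in 2 groups, so a difference between the groups alone can make r high. They are a description over many candidates.

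The rest of the pathway did not move as one. Of 80 tested genes in its lists 18 were higher and 16 lower, against 14.6% and 16.2% of all tested genes. Of the other IL1 family ligands only IL18 reached the filter, and it fell from 25.5 ± 0.635 to 14.2 ± 2.35 FPKM (SD, n = 3 each, limma adjusted p = 0.00319). Its libraries were at 25.2, 26.2 and 25.1 against 11.5, 15.9 and 15.2 FPKM, with no overlap. The receptor antagonist gene IL1RN was not analysed here. Of 4 tested receptors of the family, IL1RAPL1, a relative of IL1RAP, was lower (3.46 to 2.14 FPKM, limma adjusted p = 0.00677), and SIGIRR, a damping receptor, was at 0.967 and 0.670 FPKM (limma adjusted p = 0.105).

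Of 23 tested IL1 receptor signalling genes, 3 were higher and 5 lower, with a median log2 fold change of -0.03. These counts are near the shares over all tested genes, 14.6% higher and 16.2% lower. The adaptor MYD88 was at 7.24 and 7.62 FPKM (limma adjusted p = 0.476). TOLLIP, a damper of IL1 receptor signalling, rose from 12.9 to 18.1 FPKM, the scaffold SQSTM1 from 32.3 to 55.1 FPKM and the IRAK-binding PELI3 from 1.75 to 2.48 FPKM. PELI1, a ligase of the same family, fell from 3.21 to 1.95 FPKM, the kinase IKBKB from 7.28 to 5.69 FPKM and the ubiquitin-chain cofactor UBE2V1 from 2.04 to 0.974 FPKM. Limma adjusted p was 0.00709, 0.00113 and 0.0242 for the genes that rose and 0.0117, 0.00832 and 0.00315 for those that fell. Stretches of 50 bases shared with other genes make up 81.2% of UBE2V1 and 50.7% of SQSTM1, and 18.7% of the exon bases of PELI3 overlap opposite-strand genes, so these values are uncertain. The number lower was 3 without any 1 of the parental libraries, without Pep2-E3 replicate 2 and with RLE size factors, and 7 with a filter of 1 CPM in 3 libraries. PRKCZ, also in the list, was under the filter, at 0.398 FPKM in the parental mean and 0.0126 FPKM in Pep2-E3. It had 51, 60 and 53 fragments in the parental libraries and 0, 5 and 0 in Pep2-E3. PRKCZ was picked out after its values were seen, and 25.4% of its 50-base stretches occur in other genes.

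Of 14 tested genes of IL1 processing and release, 1 was higher and 5 lower, against 14.6% and 16.2% of all tested genes. The inflammasome sensor NLRP1 fell from 6.13 ± 0.264 to 3.54 ± 0.145 FPKM, the caspase gene CASP4 from 6.61 ± 0.0262 to 4.63 ± 0.201 FPKM, and the pore-forming gasdermins GSDMD and GSDME from 10.3 to 7.47 and from 11.7 to 8.90 FPKM (SD, n = 3 per group). SERPINB9, a protease inhibitor, fell by 0.65 ± 0.06 on the log2 scale (SE). Limma adjusted p was 0.000903, 0.00233, 0.00696, 0.00616 and 0.000985 in that order. HAX1 was higher (36.0 to 42.0 FPKM, limma adjusted p = 0.0140), but not without MDA-MB-231 replicate 1 or 2 or without Pep2-E3 replicate 2, when no gene of the list was higher. Without Pep2-E3 replicate 1, 2 genes were higher. CASP1, which cuts IL1B, was at 0.201 and 0.231 FPKM, and the inflammasome adaptor PYCARD at 0.203 and 0.163 FPKM, both under the filter. The PYCARD values rest on 1 to 10 fragments per library. Of its exon bases 59.7% overlap the opposite-strand gene PYCARD-AS1, so these values are uncertain. The median log2 fold change of the list was -0.01.

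Of 19 tested genes known to respond to IL1, 12 were higher and 1 lower, with a median log2 fold change of 0.27. Over all tested genes 14.6% were higher and 16.2% lower. PTGES, an enzyme of prostaglandin synthesis, rose from 7.84 to 15.2 FPKM. IL6, an inflammatory cytokine, was at 1.30, 1.35 and 1.52 FPKM in MDA-MB-231 and at 3.27, 3.27 and 4.62 FPKM in Pep2-E3, where it was higher in all 3 libraries. The cytokine LIF, the adhesion molecule ICAM1 and the RNase ZC3H12A, which degrades cytokine mRNAs, were higher as well, with log2 fold changes of 0.73 ± 0.08, 0.56 ± 0.05 and 0.68 ± 0.08 (SE). The collagenase MMP1 fell from 1.32 to 0.187 FPKM. Limma adjusted p was 0.00177, 0.00227, 0.00152, 0.000729, 0.00214 and 0.00319 for these genes in the order named. Of the exon bases of IL6 and ICAM1, 20.7% and 23.6% overlap genes on the opposite strand. The number higher was 9, 8 and 8 without MDA-MB-231 replicate 1, 2 or 3 and 11 or 12 without a Pep2-E3 library. The number lower was 3 without Pep2-E3 replicate 1 and 2 without Pep2-E3 replicate 3.

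Of 19 tested genes that control AU-rich mRNAs, a class to which many cytokine and chemokine transcripts belong, 3 were higher and 3 lower (median log2 fold change -0.05). These counts are near the 14.6% higher and 16.2% lower of all tested genes. The decay factor ZFP36 fell from 12.8 to 10.2 FPKM, its relative ZFP36L2 rose from 9.78 to 11.5 FPKM and KHSRP, another decay factor, rose from 75.7 to 95.8 FPKM. DUSP1, the phosphatase that switches off p38 MAP kinase, fell from 129 ± 9.84 to 64.2 ± 4.30 FPKM (SD, n = 3 per group), and CNOT8, a deadenylase, from 17.9 to 11.8 FPKM. Limma adjusted p was 0.0135, 0.0239, 0.00461, 0.000477 and 0.00172 in that order. The number higher was 5 without Pep2-E3 replicate 1, and the number lower was 5 without Pep2-E3 replicate 3.

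Other chemokines were nearly silent: of 25 listed by name 9 had a value and 2 reached the filter. CCL26 was at 2.92 and 2.88 FPKM and CCL28 at 1.38 and 1.75 FPKM (limma adjusted p = 0.914 and 0.0955). Below the filter, CX3CL1 was at 0.273 FPKM in the parental mean and 0.0292 FPKM in Pep2-E3, with no overlap. It had 41, 18 and 29 fragments in the parental libraries and 2, 1 and 6 in Pep2-E3, and was picked out after its values were seen. The receptors CXCR1, CXCR2 and CCR6 were not analysed here.

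**Figure D5:**
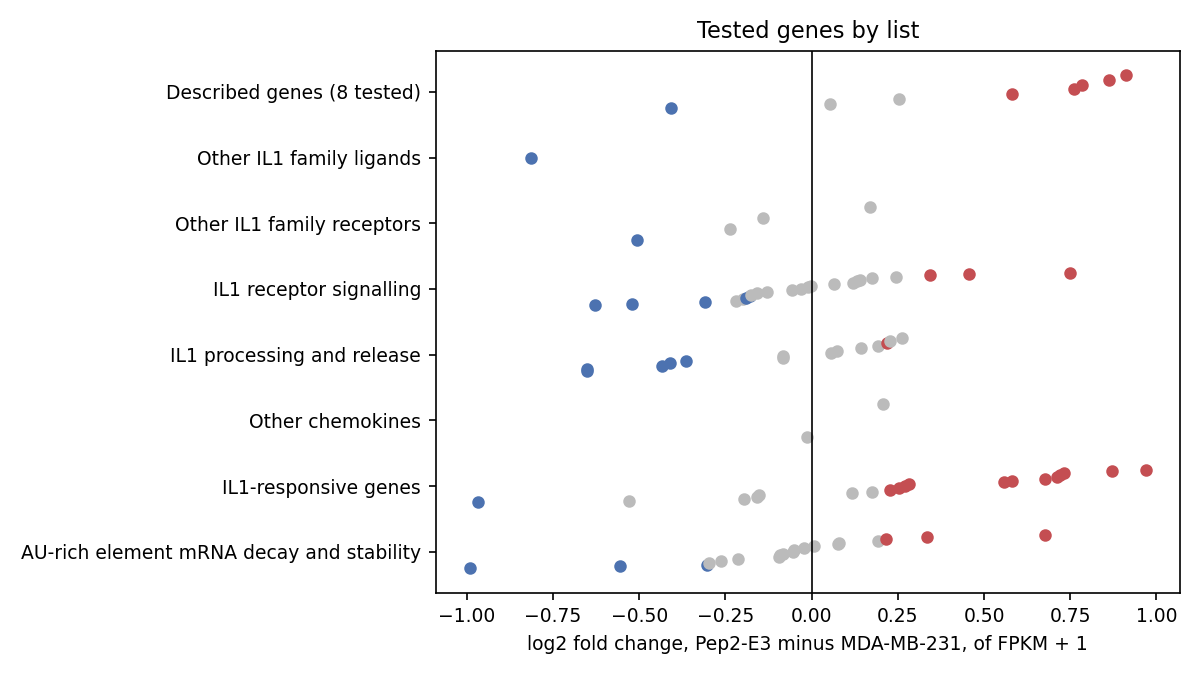
Log2 fold change of FPKM + 1 (Pep2-E3 minus MDA-MB-231) of every tested gene in the described set and in the 7 pathway lists that had a tested gene, 1 point a gene. Red is called higher, blue called lower and grey not called. Among the IL1-responsive genes 12 of 19 points are red, and in the processing and release list 5 of 14 are blue. Over all tested genes 14.6% were called higher and 16.2% lower.

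The motif shared by the 4 CXC genes was also looked up in other genes. Leaving out the described genes, 48 tested genes had GGAATTTCC in a window of 250 bases before a RefSeq start, and 9 of them were higher and 8 lower in Pep2-E3, or 18.8% and 16.7%. Among all 9770 tested genes with such a window, 16.3% were higher and 16.0% lower.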

How the data were processed

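The authors deposited 1 table per library with Ensembl gene identifiers and FPKM values, per the file headers. Tools named in the submitters' processing notes are Bowtie2 2.2.3, HTSeq 0.6.0 and HISAT2 2, and the build named there, mm8, is of the mouse. The tables hold human identifiers. Positions are from GENCODE release 29 on GRCh38, which holds all 30099. Roles of the tools, annotation and filters are not given in the sources used here. The kit named in the labels does not mark strand.

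FPKM times exon length gave whole fragments (within 0.001) for 100% of 180594 values. Counting intervals cover counting error only. Groups were compared on log2(FPKM + 1) by limma-trend (limma 3.58.1, R 4.3.3), with no covariate, over 14235 genes averaging 0.5 FPKM or more across 6 libraries, adjusted by Benjamini-Hochberg at 0.05. Fold changes on that scale understate changes of low genes, and folds are ratios of mean FPKM. The test was checked on simulated data. Genes are named where they passed, at most 6 per list by p-value, or where they define a list. PDGFRB, PRKCZ and CX3CL1 are named after their values were seen. Where a name has several identifiers the lowest was used. The members and lists were chosen with earlier results of these data known. Promoters came from RefSeq (GRCh38.p14), and 9 of 9 genes matched. Alternatives were RLE and upper-quartile factors, scaling without mitochondrial and the 50 most abundant genes, other filters, pseudocounts of 0.1 and 5, limma-voom on the fragments, a GC and exon length correction, a replicate block, and leaving out each library. The gene most like IL1B across libraries is not reported here.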

Additional observations from a re-analysis of the deposited data

How the results depend on the processing

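Across 17 alternatives, 127 of the 136 values of the 8 tested genes kept their direction and their side of the threshold. IL1A, IL1R1, CXCL1, CXCL2 and CXCL3 stayed higher in all 17, and 5 or 6 of the 9 genes were higher. With 1 library left out, the log2 fold change of IL1B ran from -0.43 to -0.38 and the number lower was 0 or 1. With the replicate block IL1B was at -0.41 (limma adjusted p = 0.0505, number lower 0). Same-numbered libraries did not deviate together (Pearson r -0.04, 0.04 and -0.06 over 14235 genes), so the block only shares a number. Across all genes the block called 1364 higher, and leaving out 1 library called 1185 to 2302 higher and 1289 to 2555 lower. CXCL8 was called with the GC and length correction (0.36), also with the block added (0.36), and over single left-out libraries ran from 0.16 to 0.39. IL1RAP ran from -0.011 (without MDA-MB-231 replicate 3) to 0.13 with a library left out, and was at -0.005 without Pep2-E3 replicate 3. For low genes the scale decides the size: IL1A was at 1.51 and IL1B at -1.16 with limma-voom on the fragments, and at 0.32 and -0.11 with a pseudocount of 5. All 54 values of the 6 pair differences kept their direction, in a design too small to pass the threshold. Those with the replicate block could not do otherwise, as the mean over same-numbered libraries equals the main difference. The number of lower IL1-responsive genes was 4 with the GC and length correction and 3 with the block added. Lower signalling genes numbered 3 with RLE factors or the block against 5. Higher processing and release genes numbered 3 with the 1 CPM filter, 2 with limma-voom and 0 with the block against 1. Other IL1 family receptors had 1 higher without a filter, and 2 lower with the 1 CPM filter or the GC and length correction against 1. Other chemokines had 1 lower without a filter against 0. The cause of these moves was not tested. IL1B and CCL20 are limited by depth, at 16 to 47 and 1 to 3 fragments per library.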
